A study of Mus musculus with 12 samples.

Results

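The mitochondrial ribosomal protein genes were taken as the rows of the count table whose Ensembl ID carries a mouse symbol starting with Mrpl or Mrps and a digit, with names ending in -ps left out. This gave 78 genes of 78334 IDs, 49 named for the large subunit (Mrpl) and 29 for the small subunit (Mrps). They were measured by bulk RNA sequencing in the hypothalamus of male C57BL/6 mice, in 12 libraries of 4 groups. The 3 control libraries came from mice on standard diet that were given vehicle. The 4 diabetes libraries came from mice injected with streptozotocin, which destroys insulin-producing beta cells, at 70 mg/kg on postnatal day 2. From 3 weeks of age these mice ate a diet with 60% of its energy as fat for 8 weeks, and they too were given vehicle. The 3 curcumin and 2 garlic libraries came from mice with the same injection and diet that were gavaged each day for 28 days with curcumin at 50 mg/kg or aged garlic extract at 200 mg/kg. The injection and the diet come together in every group but control, so their parts cannot be told apart, and the start of treatment is given as week 7 of the diet in one place and after 11 weeks in another. In bulk tissue, fewer cells of a type and less RNA per cell cannot be told apart either. Whether the libraries are separate animals is not stated, and the tests therefore use the spread among the 12 libraries, which may be technical.

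Mitochondria keep a ribosome of their own, which translates the few mRNAs of the mitochondrial genome, all of them for core subunits of oxidative phosphorylation. Its rRNA is made inside the organelle, whereas its proteins are encoded in the nucleus, made on cytosolic ribosomes and imported, so that the 2 genomes have to supply matching parts. Some of these proteins have bacterial counterparts and others arose in mitochondria. Neurons rely heavily on respiration, and inherited defects of mitochondrial ribosomal proteins affect brain, heart and muscle.

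Promoter letters were not used to choose the members, and a minority of the member promoters hold any one of the short motifs searched. Upstream windows of 4 genes that hold one are shown because they include members with large and with small differences between groups. RefSeq's promoter table (GRCm38.p6, 250 bases before to 50 after each start) had entries for 69 of the 78 genes, in 75 rows. Each window below is the 120 bases before the start, 5′ to 3′ on the strand of the gene, with capitals marking the ETS letters CCGGAAG or the NRF1 letters GCATGCGC on either strand.
Mrpl52 (chr14:54426789-54426908, plus strand): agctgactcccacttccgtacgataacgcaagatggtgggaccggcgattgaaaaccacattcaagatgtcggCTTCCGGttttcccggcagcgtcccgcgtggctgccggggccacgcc
Mrpl17 (chr7:105811088-105811207, minus strand): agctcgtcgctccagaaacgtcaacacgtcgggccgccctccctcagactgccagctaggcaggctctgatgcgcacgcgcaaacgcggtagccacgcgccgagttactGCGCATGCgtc
Mrpl58 (chr11:115403632-115403751, plus strand): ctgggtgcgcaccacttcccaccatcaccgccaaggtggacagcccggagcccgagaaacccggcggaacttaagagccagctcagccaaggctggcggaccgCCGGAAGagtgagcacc
Mrpl3 (chr9:105053148-105053267, plus strand): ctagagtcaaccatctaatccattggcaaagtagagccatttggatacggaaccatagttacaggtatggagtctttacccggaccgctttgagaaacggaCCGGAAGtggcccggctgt
Mrpl52 and Mrpl3 both hold the ETS letters, and their log2 changes in diabetes against control, given below, were 1.20 and 0.04. Over the whole 300-base entries, CCGGAAG was found on either strand in 34.7% of the 75 member promoters and in 8.86% of all 32851 promoters in the table. GCATGCGC was found in 10.7% and 2.71%, and AAGATGGC, the YY1 letters, in 16.0% and 2.75%. The ETS letters end and the YY1 letters begin with AAG, so that both can share bases. The TATA letters TATAAA were found in 6.67% of member promoters and 13.6% of all. Such a match is a description of the letters, not evidence of a bound factor.

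Libraries held 12950017 to 30271706 counts, of which 35051 to 98043 fell on the members. Several libraries stood apart in the markers of the dissected tissue, for which 20 hypothalamic genes were used. Curcumin replicate 2 had a summed hypothalamic level of 349 CPM (counts scaled to a common library size), against 820.2 and 1881 in the other curcumin libraries and 1806 to 2555 in control. Its Hcrt and Fezf1 were at 0, and Agrp was at 0 in 6 of the 12 libraries, while all other genes of the list had counts in every library. Diabetes replicate 4 held 854 CPM of 7 anterior pituitary markers, which summed to at most 17.5 CPM in every other library. Control replicate 3 had 654 CPM of 7 astrocyte markers, against 2423 and 2550.4 in the other control libraries. The number of genes expected to be detected at the lowest depth was lowest in the diabetes libraries (20133 to 22515), against 25766 to 33157 in control, and reached 20917 to 29126 with curcumin and 33125 to 34719 with garlic.

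In all, 77 of the 78 genes passed the filter on low counts. Mrpl34, a large-subunit protein with a bacterial counterpart, did not: it had 4 counts in all, spread over 3 libraries. A count of 0 allows up to 3 counts, which is 0.0991 to 0.232 CPM depending on the library, for counting error only. Per kilobase of transcript and over all libraries, the tested members ran from 3.00 to 126 CPM, with a median of 27.6. The highest were Mrpl52 (126 CPM per kilobase), Mrpl20 (124) and Mrpl41 (88.4), all of the large subunit, of which Mrpl52 and Mrpl41 have no bacterial counterpart. The lowest tested were Mrps36 (3.00) and Mrpl47 (4.52), the latter a protein at the exit of the ribosome tunnel. The medians of the Mrpl and Mrps genes, 27.7 and 27.5 CPM per kilobase, were nearly the same.

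Summed over all members, the level was 2323, 2433 and 2549 CPM in control, 3463, 2988, 4489 and 4097 in diabetes, 1659, 3305 and 2192 in curcumin and 1954 and 2660 in garlic. Every diabetes library lay above every control and garlic library, and curcumin replicate 2 lay within the diabetes range. As a share of each library's counts the members took 0.251 ± 0.0175% in control (SD, n = 3), 0.356 ± 0.0493% in diabetes (n = 4), 0.238 ± 0.0702% in curcumin (n = 3) and 0.238 ± 0.0528% in garlic (n = 2). The spread within curcumin was larger than that within control: the median coefficient of variation of a member was 35.7% in curcumin, 24.8% in diabetes, 21.2% in garlic and 10.9% in control. Large- and small-subunit genes gave the same order of libraries in diabetes and curcumin. Of the 77 tested members, 67 had their highest group mean in diabetes, and 40 had their lowest in garlic, 24 in curcumin and 12 in control.

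**Figure D1:**
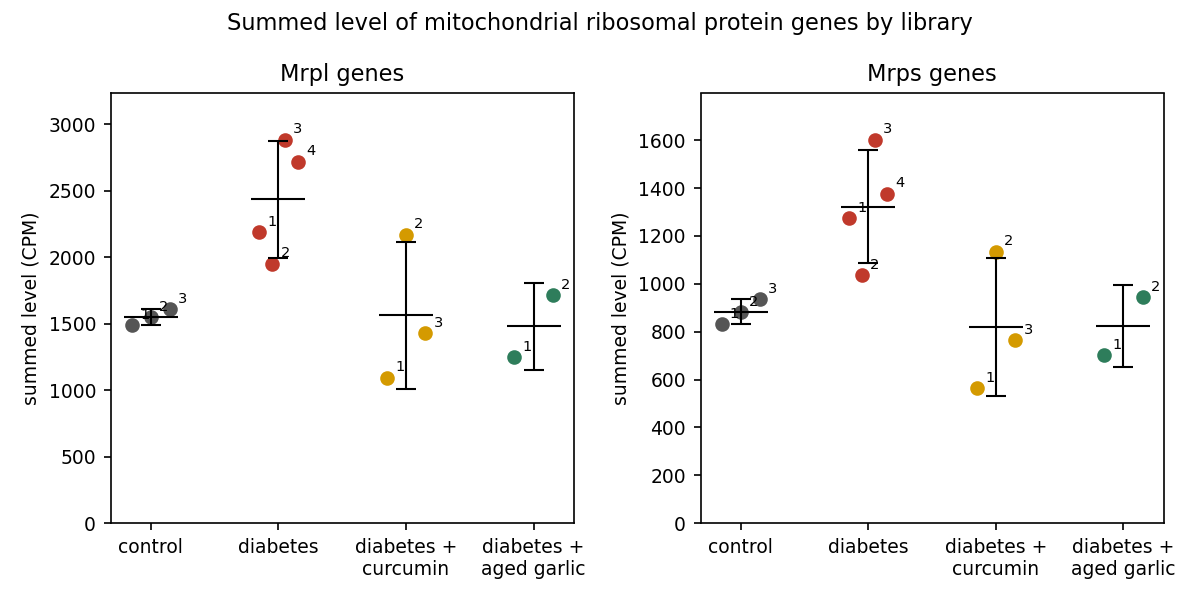
Summed CPM of the 49 Mrpl genes (left) and the 29 Mrps genes (right) in each library, with the replicate number beside each point and the mean ± SD of each group. The 4 diabetes libraries lie above the 3 control libraries in both panels, and curcumin replicate 2 lies within the diabetes range.

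The comparison of diabetes with control asked how the genes differed in the diabetes model. Most mitochondrial ribosomal protein genes were higher in diabetes, by a median of 0.56 on the log2 scale over the 77 tested, with 73 positive and 4 negative, beside a median of -0.07 over all 25562 genes tested. None passed edgeR's quasi-likelihood test at an adjusted p of 0.05, which called 4 genes of the whole table (0.0156%), all higher. At an unadjusted p under 0.05, 36 members were higher and 0 lower, against 4.79% of all genes higher and 7.48% lower. The diabetes and control libraries did not overlap, with diabetes higher, for 36 members, against 5.78% of all genes.

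Mrpl54 (ENSMUSG00000034932), a large-subunit protein found in mitochondria only, had the smallest p of the members. Its level was 25.5, 28.4 and 26.1 CPM in control, 64.2, 50.1, 135 and 77.6 in diabetes, 15.1, 43.2 and 21.4 in curcumin and 20.5 and 31.2 in garlic. The lowest diabetes library was above every library of the other 3 groups, and diabetes replicate 3 was the highest of all 12. Diabetes against control gave a log2 change of 1.61 ± 0.36 (SE; edgeR adjusted p = 0.122), which did not pass. Mrpl52 (ENSMUSG00000010406), another large-subunit protein without a bacterial counterpart, was at 35.8, 43.8 and 41.8 CPM in control, 85.6, 83.2, 102 and 99.5 in diabetes, 16.5, 54.1 and 37.2 in curcumin and 22.7 and 45.8 in garlic. Here too the 4 diabetes libraries stood above the other 8, and they varied less than those of Mrpl54. Its log2 change was 1.20 ± 0.32 (adjusted p = 0.18).

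Mrpl20 (ENSMUSG00000029066) binds the large rRNA early in assembly and was at 43.0, 43.7 and 46.4 CPM in control, 83.9, 72.4, 123 and 128 in diabetes, 17.2, 59.7 and 39.9 in curcumin and 24.5 and 53.3 in garlic. All 4 diabetes libraries were above the rest, and curcumin replicate 1 was the lowest of all. The log2 change was 1.20 ± 0.35 (adjusted p = 0.216). Mrpl17 (ENSMUSG00000030879), with a bacterial counterpart near the tunnel exit, was at 38.5, 46.0 and 37.3 CPM in control, 60.1, 62.8, 90.6 and 68.5 in diabetes, 43.2, 44.6 and 56.1 in curcumin and 33.5 and 40.0 in garlic. Its diabetes libraries also lay above all others, with a smaller log2 change of 0.80 ± 0.22 (adjusted p = 0.201). Mrps28 (ENSMUSG00000040269), of the small subunit, was at 8.82, 9.34 and 8.93 CPM in control, 17.6, 15.2, 27.4 and 22.2 in diabetes, 14.2, 17.2 and 9.91 in curcumin and 5.27 and 6.79 in garlic. Diabetes and control did not overlap, but 1 curcumin library lay within the diabetes range, and both garlic libraries were below every control library. Diabetes against control gave 1.19 ± 0.34 (adjusted p = 0.206).

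Mrpl12 (ENSMUSG00000039640) forms the stalk of the large subunit that recruits translation factors and also binds the mitochondrial RNA polymerase. Its level was 59.2, 60.5 and 69.6 CPM in control, 120.1, 92.1, 169 and 163 in diabetes, 29.3, 111 and 63.0 in curcumin and 48.9 and 78.5 in garlic. Diabetes stood above control in every library, with curcumin replicate 2 inside the diabetes range, and the log2 change was 1.11 ± 0.34 (adjusted p = 0.243). Mrps12 (ENSMUSG00000045948), the counterpart of the bacterial protein at the decoding centre where streptomycin acts, was at 46.1, 55.8 and 43.6 CPM in control, 77.3, 62.1, 130.2 and 105 in diabetes, 21.1, 64.3 and 43.3 in curcumin and 30.6 and 47.3 in garlic. Diabetes and control again did not overlap, although curcumin replicate 2 lay within the diabetes range, and the log2 change was 0.95 ± 0.33 (adjusted p = 0.294). Mrpl58, which frees stalled ribosomes by releasing the peptide from tRNA, stood at 75.4 ± 10.7 CPM in diabetes (SD, n = 4) and 44.1 ± 1.10 in control (n = 3). Mrpl45, which holds the ribosome at the inner membrane, stood at 56.3 ± 6.74 and 40.9 ± 5.23 CPM. Neither passed (adjusted p = 0.31 and 0.476 by edgeR), although diabetes did not overlap with control in either gene. Mrpl30, at 81.4 ± 18.0 against 44.6 ± 3.54 CPM, had an adjusted p of 0.252.

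Other tools called members in the same direction. DESeq2 called 9 members higher (1.86% of all genes higher), and limma-voom with library weights called 19 (2.83%). Mrpl54, Mrpl52, Mrpl20, Mrpl17 and Mrpl12 were among the members called by both. The member median was 0.47 without diabetes replicate 3, the lowest value of the leave-one-out fits, and 0.53 without diabetes replicate 4, the library with pituitary RNA. With the number of detected genes as a covariate the median was 0.94, more than 1.5 times the value without it, and no member passed. Diabetes and control did not overlap in that number, so this fit separates group from covariate only weakly. The count of 36 members at an unadjusted p under 0.05 was 15, 18 and 26 without control replicates 1, 2 and 3. It was 31, 38, 15 and 23 without diabetes replicates 1, 2, 3 and 4. The share of all genes at that threshold was not worked out in these fits. These counts alone therefore do not tell a shift of the members from one of all genes. In the same fits the member medians lay between 0.47 and 0.66 and those over all genes between -0.11 and -0.05.

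**Figure D2:**
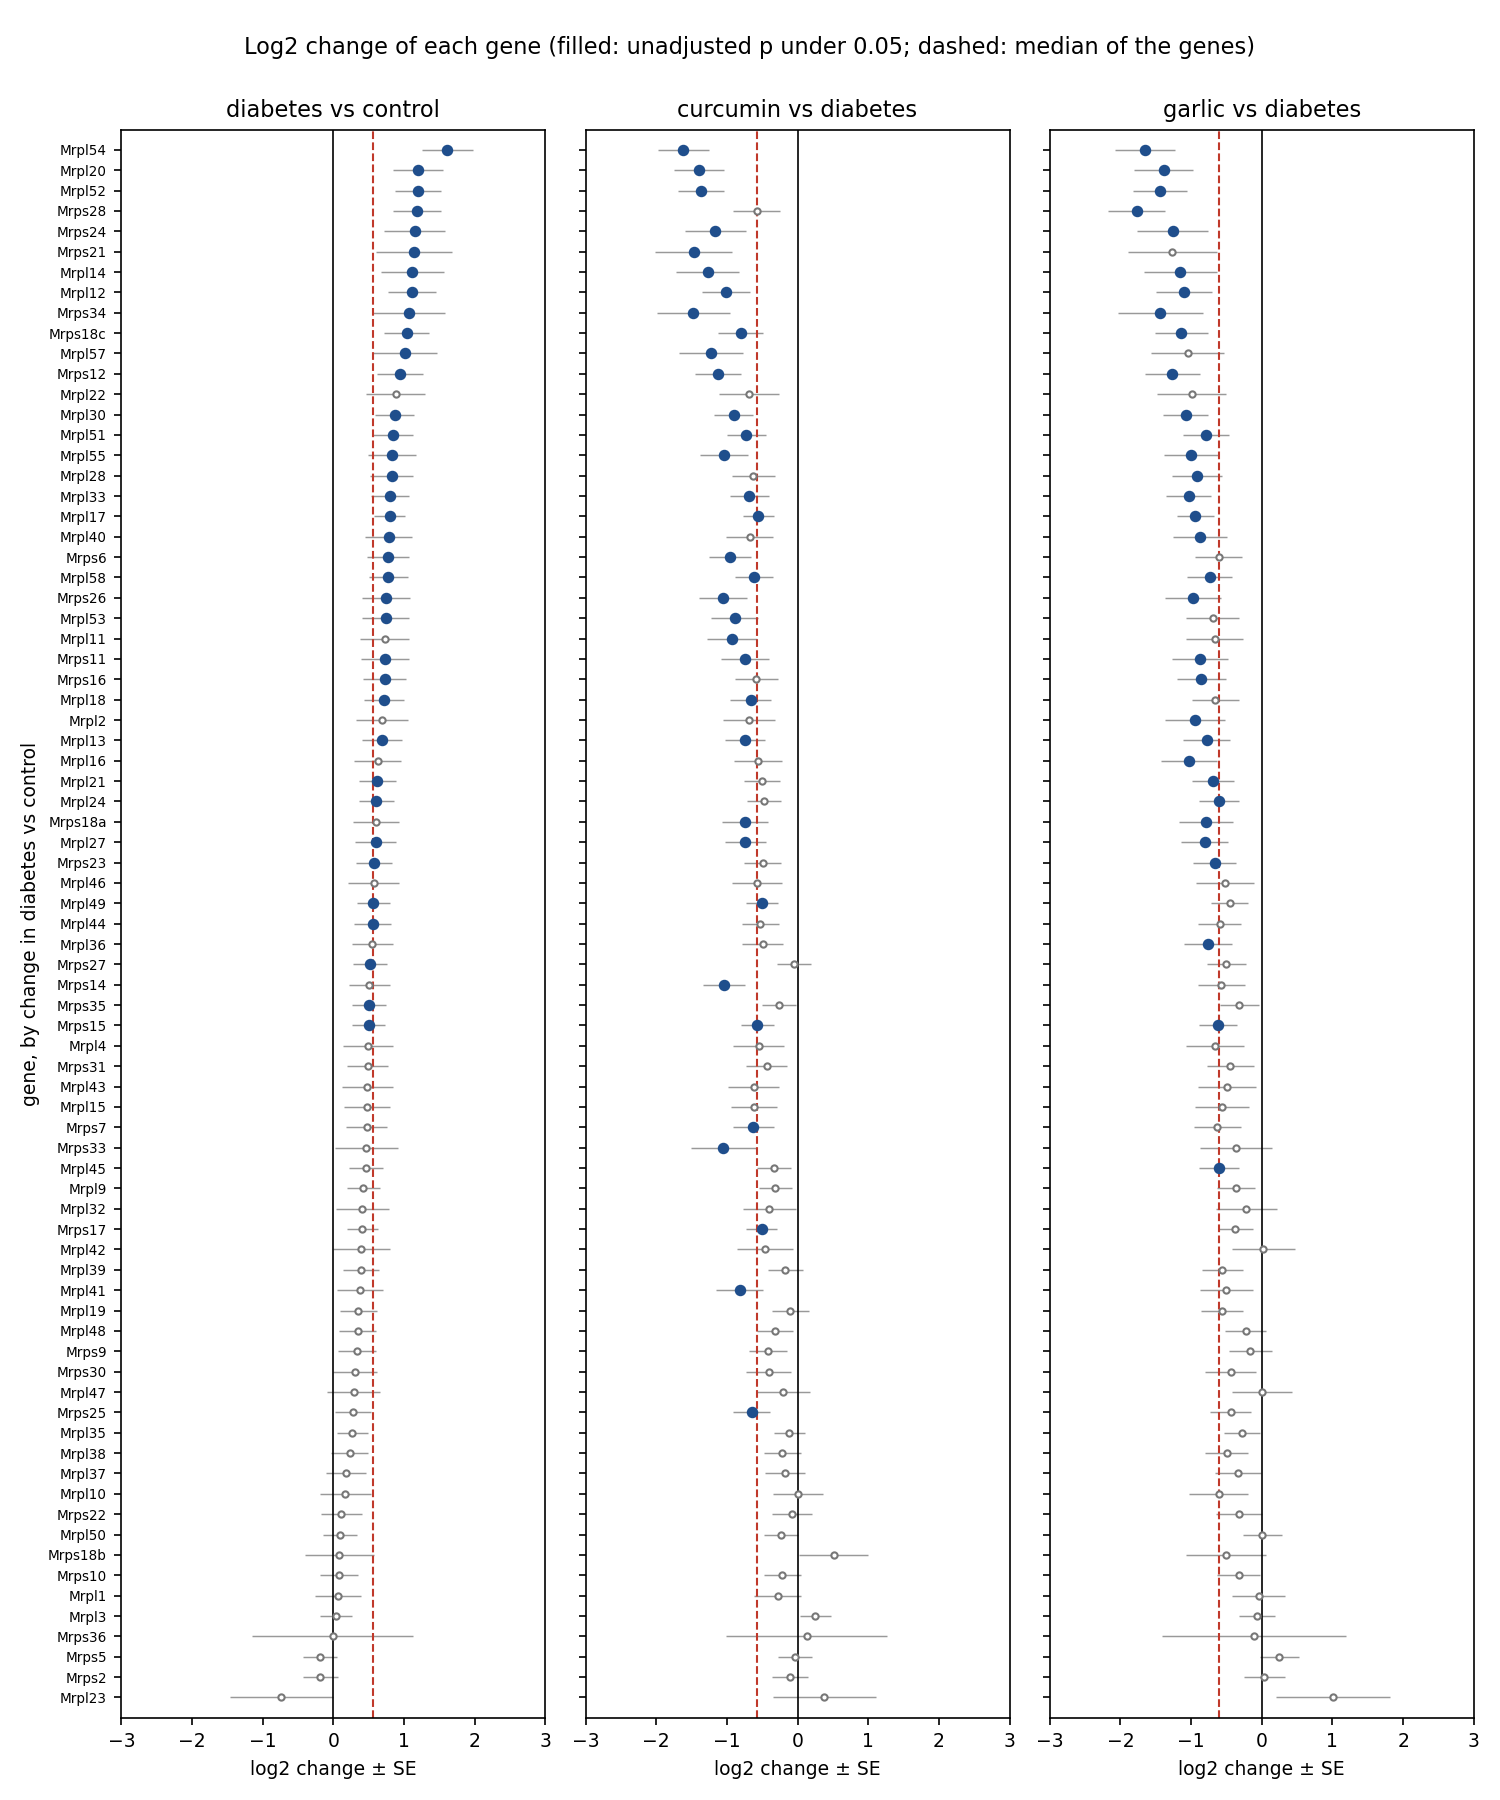
Log2 change ± SE of each of the 77 tested genes in diabetes vs control, curcumin vs diabetes and garlic vs diabetes, in the order of the first panel. Filled points had an unadjusted p under 0.05 (36, 34 and 32 genes), and the dashed lines mark the medians of 0.56, -0.57 and -0.61.

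Markers of other cells moved with this comparison. Of the 6 blood markers 5 were tested, and all 5 were higher in diabetes at an unadjusted p under 0.05. The 6 summed to 264 to 1755 CPM in diabetes and 87.5 to 196 in control, with 122 to 504 after curcumin and 115 to 154 after garlic, and Slc4a1 was at 0 in 10 of the 12 libraries. Of the 9 neuronal markers, 3 were lower in diabetes at that threshold, and they summed to 2912 to 3197 CPM in diabetes and 3590.1 to 3789.9 in control, with 3157 to 4787 after curcumin and 3369.9 to 4003 after garlic, and with none of them at 0 in any library. Of the 7 anterior pituitary markers 5 were tested and 2 were higher at that threshold, where Gh and Prl were at 0 in diabetes replicates 1 to 3. Lhb was at 0 in all 12 libraries and Pou1f1 in 10. Of the 8 thalamus and habenula markers 3 were lower and 1 higher, with sums of 177 to 269 CPM in diabetes and 201 to 388 in control, and Pou4f1 was at 0 in all 4 diabetes libraries. Of the 20 hypothalamic markers 2 were higher and 1 lower, but their sums did not overlap, at 2767 to 5354 CPM in diabetes and the lower control range given above. The part of blood, neuronal, pituitary, thalamic or hypothalamic RNA and of the number of detected genes in the result was not tested.

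The comparison of curcumin with diabetes asked how the genes differed in treated mice. Most were lower with curcumin, by a median of -0.57 (72 negative and 5 positive), beside 0.07 over all genes. By edgeR 0 members passed, while 23 genes of the whole table did (0.09%). At an unadjusted p under 0.05, 34 members were lower and 0 higher, against 6.71% of all genes lower and 10.5% higher. The libraries did not overlap, with curcumin lower, for 12 members, against 4.19% of all genes. This contrast shares its 4 diabetes libraries with the one before and with the one on garlic, so that the opposite signs are not independent of each other.

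Mrpl54, the member of smallest p again, gave a log2 change of -1.62 ± 0.36 (edgeR adjusted p = 0.0675). The means were 26.6 ± 14.8 CPM with curcumin (SD, n = 3) and 81.6 ± 37.0 in diabetes (n = 4). Mrpl52 gave -1.37 ± 0.32 (adjusted p = 0.0834) and Mrpl20 -1.39 ± 0.35 (adjusted p = 0.0957), and in all 3 genes every curcumin library was below every diabetes library. Mrps14 (ENSMUSG00000058267), a small-subunit protein with a bacterial counterpart, was at 39.3, 40.4 and 50.9 CPM in control, 68.6, 45.1, 51.3 and 83.0 in diabetes, 20.7, 40.4 and 29.1 in curcumin and 28.7 and 54.9 in garlic. All 3 curcumin libraries lay below every diabetes library, and replicates 1 and 3 were also below every control library. It gave -1.04 ± 0.30 (adjusted p = 0.118), and Mrps12 gave -1.13 ± 0.33 (adjusted p = 0.126).

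The curcumin libraries differed most among themselves in Mrps34 and Mrps21. Mrps34 (ENSMUSG00000038880), a small-subunit protein of mitochondria only in which mutations cause a mitochondrial encephalopathy, was at 36.9, 40.2 and 22.6 CPM in control, 89.0, 61.7, 80.7 and 47.8 in diabetes, 4.21, 54.1 and 17.0 in curcumin and 24.4 and 27.3 in garlic. Curcumin replicates 1 and 3 were below every other library, whereas replicate 2 lay within the diabetes range. Mrps21 (ENSMUSG00000054312), with a bacterial counterpart, was at 18.4, 18.0 and 19.5 CPM in control, 38.4, 32.7, 44.5 and 48.5 in diabetes, 3.36, 35.5 and 5.60 in curcumin and 11.2 and 23.0 in garlic. Replicate 2 again lay within the diabetes range, and the other curcumin libraries were lower than every other library. The log2 changes were -1.47 ± 0.52 and -1.47 ± 0.55, with large errors, and neither passed (adjusted p = 0.178 and 0.194).

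Several settings given at the end moved the count of members called. It rose most when curcumin replicate 2, the library with little hypothalamic marker RNA, was left out. Without it, edgeR called 27 members lower, against 4.82% of all genes tested there, and the member median was -0.79. Mrpl54, Mrpl52, Mrpl20, Mrpl12, Mrps12, Mrps14, Mrps18a, Mrps21, Mrps34, Mrpl30, Mrpl41 and Mrpl42 were among the 27. Without both that library and diabetes replicate 4, 16 members were called lower, against 3.3% of all genes. With all libraries in the fit, DESeq2 called 10 members lower (2.62% of all genes lower) and limma-voom with library weights called 2, Mrpl54 and Mrps21 (0.45%). Without curcumin replicate 1, the library with the lowest level for 43 of the 77 members, the median was -0.40 and 0 members passed. The count of 34 members at an unadjusted p under 0.05 was then 12, and it was 47 and 21 without curcumin replicates 2 and 3. It was 30, 42, 20 and 26 without diabetes replicates 1, 2, 3 and 4. The share of all genes at that threshold was not worked out in these fits either.

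**Figure D3:**
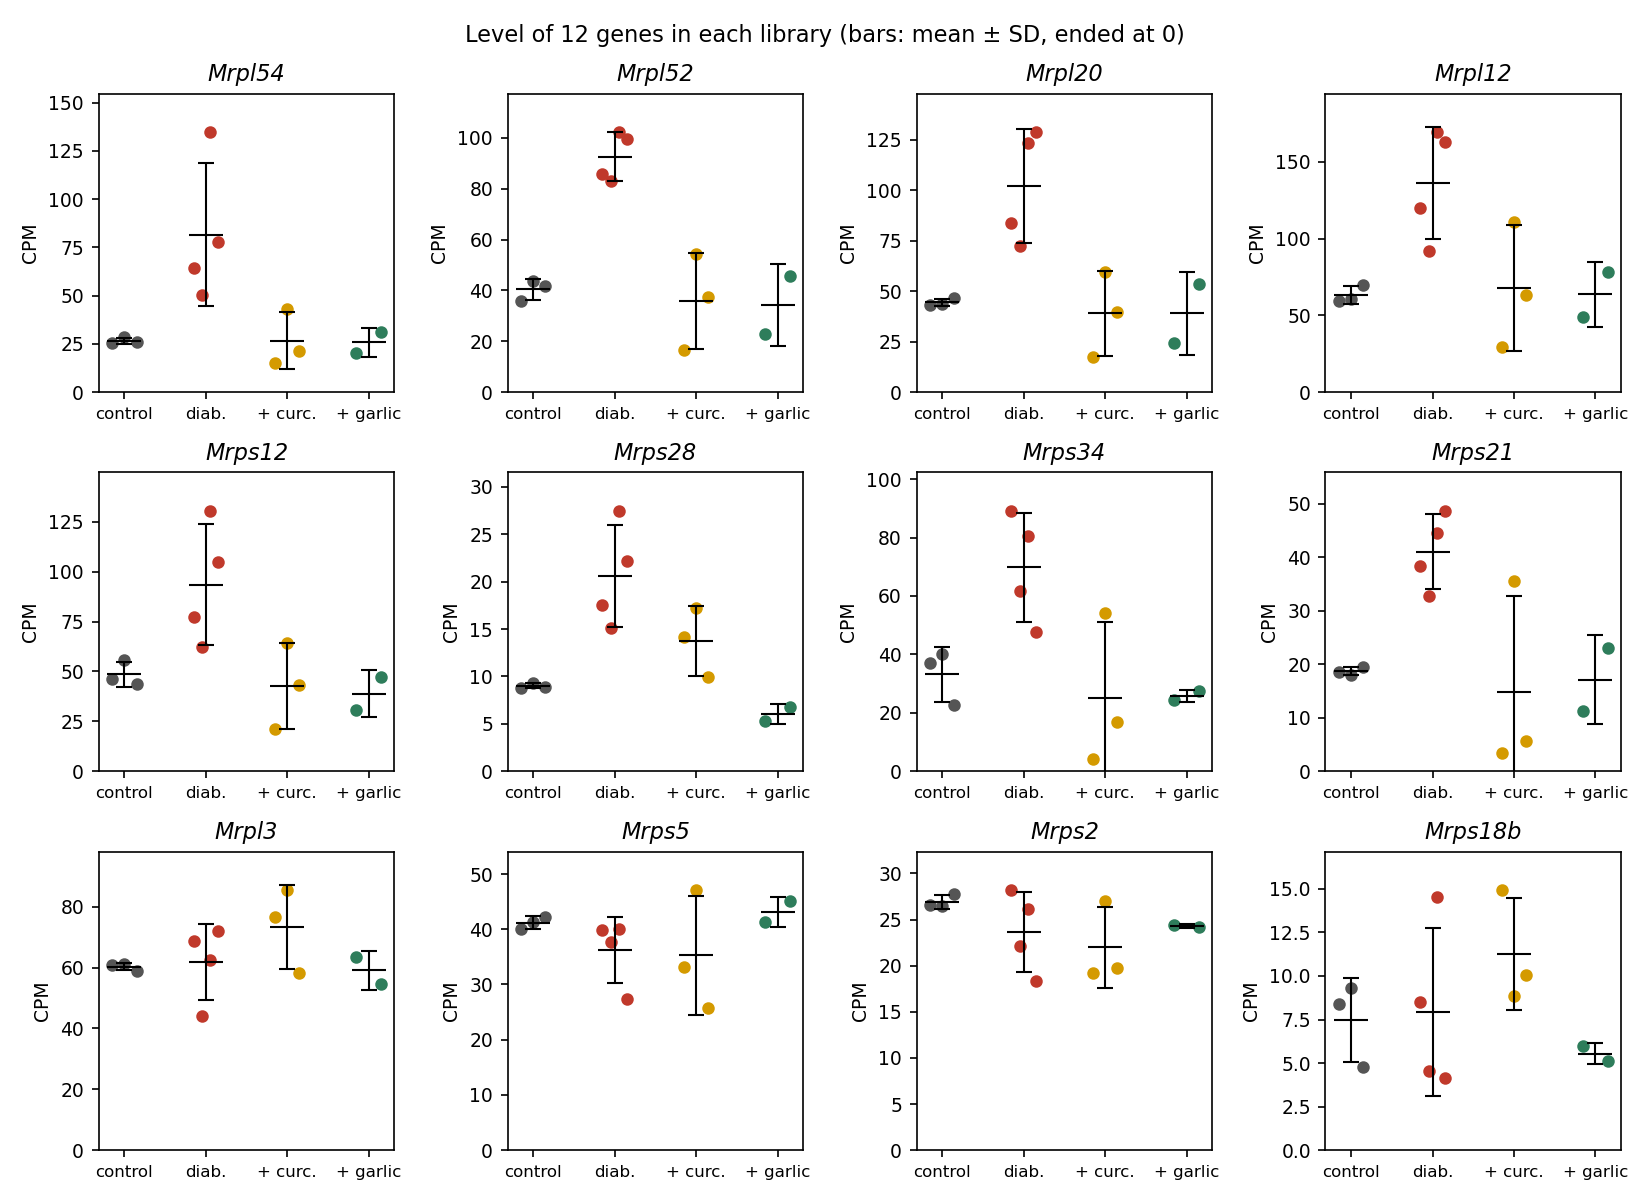
Level in CPM of 12 genes in each library, with the mean ± SD of the 3 control, 4 diabetes, 3 curcumin and 2 garlic libraries. Mrpl54, Mrpl52 and Mrpl20 show diabetes above all other libraries, curcumin replicate 2 is the high curcumin point in the first 8 panels, and diabetes overlaps with control in Mrpl3, Mrps5, Mrps2 and Mrps18b.

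Markers of several cell types and neighbouring regions moved with this comparison. Of the 20 hypothalamic markers 7 were lower with curcumin and 1 higher at an unadjusted p under 0.05, and they summed to 2767 to 5354 CPM in diabetes and 349 to 1881 in curcumin. Of the 7 endothelial and mural markers 5 were higher, with sums of 67.4 to 188 and 139 to 438 CPM, and Kdr was at 0 in diabetes replicate 1. Of the 5 blood markers tested 4 were lower, and of the 9 neuronal markers 4 were higher and 1 lower, with the sums given above. Of the 8 thalamus and habenula markers 3 were higher and 1 lower, with a sum of 125 to 563 CPM in curcumin, the highest in replicate 2. Of the 5 pituitary markers tested 2 were lower and none higher, with a sum of 1.04 to 13.1 CPM in curcumin. Their part in the member result was not tested.

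The comparison of garlic with diabetes rested on 2 treated libraries. Most members were lower with aged garlic extract, by a median of -0.61 (71 negative and 6 positive), beside 0.07 over all genes. By edgeR 0 members and 0 genes of the whole table passed (0%), with 32 members lower and 0 higher at an unadjusted p under 0.05, against 4.03% of all genes lower and 6.9% higher. The libraries did not overlap for 34 members with garlic lower (7.52% of all genes) and for 2 with garlic higher (13.2%). Those 2, Mrps5 and Mrpl23, had adjusted p values of 0.938 and 0.82, and Mrpl23 is named after its values were seen.

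Mrps28 had the smallest p, at 6.03 ± 1.07 CPM with garlic (SD, n = 2) against 20.6 ± 5.40 in diabetes (n = 4), a log2 change of -1.77 ± 0.41 (edgeR adjusted p = 0.176). Its change with curcumin was -0.58 ± 0.33 (adjusted p = 0.393), and the difference between the treatments was not tested. Mrpl54 gave -1.66 ± 0.42 (adjusted p = 0.205), Mrpl52 -1.44 ± 0.38 (0.217) and Mrpl17 -0.94 ± 0.26 (0.226). Mrpl30 (ENSMUSG00000026087), of the large subunit, was at 47.0, 46.3 and 40.5 CPM in control, 70.8, 67.5, 80.2 and 107 in diabetes, 25.1, 58.7 and 46.6 in curcumin and 31.8 and 45.4 in garlic, and both garlic libraries were below all 4 diabetes libraries. It gave -1.08 ± 0.32 (adjusted p = 0.266). Garlic replicate 1 was the lower of the pair for most of these genes, and without it the median was -0.46, with 9 members lower at an unadjusted p under 0.05, whereas without replicate 2 it was -0.91. That count was 27, 36, 14 and 21 without diabetes replicates 1, 2, 3 and 4, and the share of all genes was not worked out there.

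DESeq2 called 7 members lower with garlic (1.56% of all genes lower) and limma-voom with library weights called 8 (1.4%). Mrpl54, Mrpl52, Mrpl20, Mrpl17, Mrpl30 and Mrps12 were called by both. With the number of detected genes as a covariate the median was -1.22, more than 1.5 times the value without it, and no member passed. Diabetes and garlic did not overlap in that number either, so group and covariate are again separated only weakly. Of the 5 blood markers tested, 4 were lower with garlic and 3 of the 9 neuronal and 3 of the 7 endothelial and mural markers were higher at an unadjusted p under 0.05, with endothelial sums of 181 to 281 CPM and the other sums as above. Of the 20 hypothalamic markers 2 were lower and 1 higher, with sums of 1217 to 2707 CPM in garlic. Among the thalamus and habenula markers 1 was lower (169 to 192 CPM in all), and among the pituitary markers 1 (4.48 to 5.76 CPM). Their part in the result was not tested.

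Against control, the treated groups showed medians near 0 in these genes with all libraries in the fit. The member median was 0.00 for curcumin against control, with 38 positive and 39 negative, and -0.10 for garlic against control, with 24 positive and 53 negative. The medians over all genes were 0.00 in both. By edgeR 0 members and 0 genes passed in either contrast (0%), and 0 members had an unadjusted p under 0.05, against 2.34% of all genes for curcumin and 0.11% for garlic. Mrpl54 stood at 26.7 ± 1.54 CPM in control, 26.6 ± 14.8 in curcumin and 25.9 ± 7.57 in garlic, with log2 changes against control of 0.00 (SE 0.37) and -0.04 ± 0.41. Single treated libraries decided these medians. For curcumin against control the median was 0.17 without curcumin replicate 1, with 65 members positive. Without curcumin replicate 2 it was -0.34, with 12 positive and 15 lower at an unadjusted p under 0.05 (share of all genes not worked out). For garlic against control it was 0.12 without garlic replicate 1, with 49 positive, and -0.29 without garlic replicate 2, with 6 positive. A miss of the threshold does not show equal levels, since the errors of these changes leave room for a difference. Mrps28 was the named member whose treated groups moved apart: both garlic libraries were below and all 3 curcumin libraries above control, at -0.58 ± 0.40 and 0.61 ± 0.35 (adjusted p = 1 in both). Without curcumin replicate 2, edgeR called 1 member against control, Mrps21, at a lower level, against 0.193% of all genes lower.

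**Figure D4:**
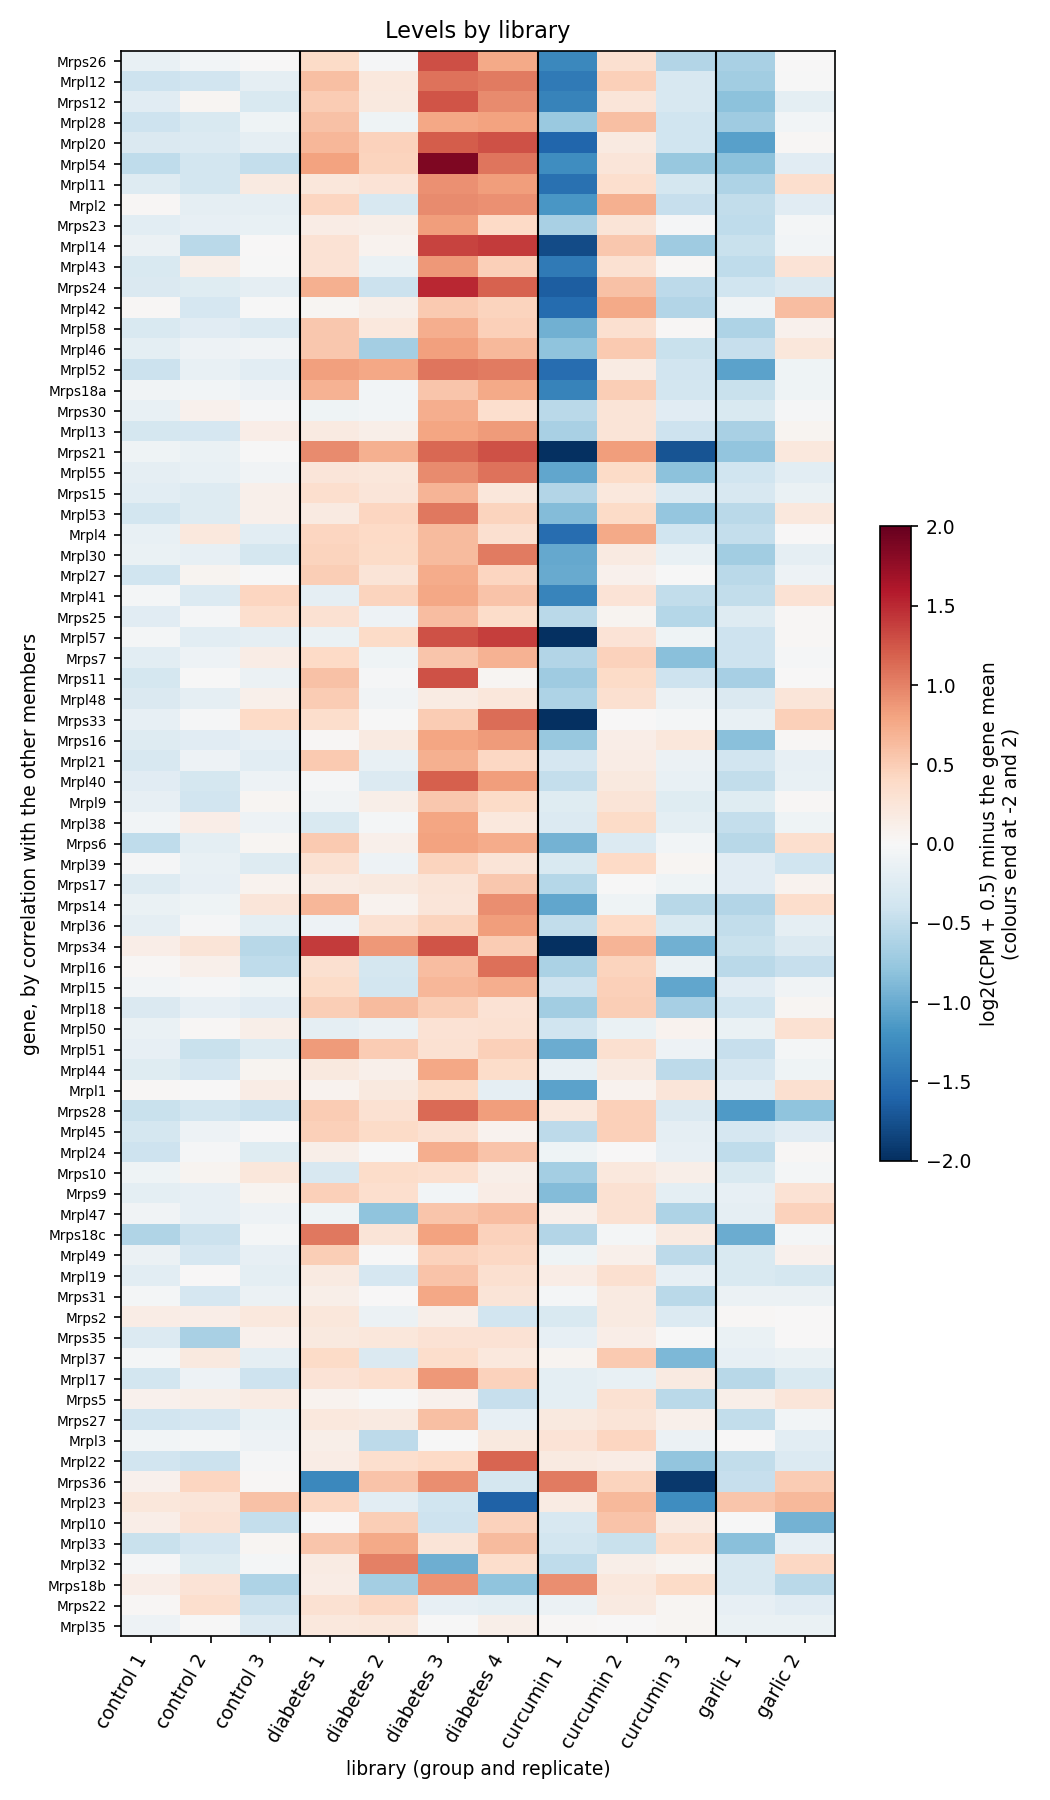
Level of the 77 tested genes in each of the 12 libraries, as log2(CPM + 0.5) minus the mean of the gene. Genes are ordered from the highest to the lowest correlation with the median of the other members. Group means were subtracted for that correlation but not for the colours. Diabetes replicates 3 and 4 and curcumin replicate 2 are red and curcumin replicate 1 and garlic replicate 1 are blue for most genes, and the last 10 rows, from Mrpl3 to Mrpl35, have correlations of 0.33 or less.

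Within the groups the members mostly varied together over the libraries. The mean of its group was first subtracted from each log2 level, so that differences between groups do not enter. All members share the depth of each of the 12 libraries. The correlation was not worked out for other genes, so it does not show a trait particular to the members. The Pearson correlation of a member with the median of the other members had a median of 0.76. It was above 0.5 for 60 of 77 and was negative for 6. It was highest for Mrps26 (0.98) and Mrpl12 (0.98) and lowest for Mrpl35 (-0.44), where Mrps26 and Mrpl35 are named after their values were seen. Diabetes replicate 3 held the highest value of 33 members and diabetes replicate 4 that of 20, while curcumin replicate 1 held the lowest value of 43.

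A few members did not share the direction of the rest. Mrpl3 (ENSMUSG00000032563), a large-subunit protein with a bacterial counterpart near the catalytic centre, was at 60.7, 61.3 and 58.9 CPM in control, 68.7, 43.9, 62.5 and 72.0 in diabetes, 76.6, 85.4 and 58.3 in curcumin and 63.6 and 54.6 in garlic. The groups overlapped, and the log2 changes were 0.04 ± 0.22 in diabetes against control and 0.25 ± 0.22 with curcumin against diabetes. Mrps5 (ENSMUSG00000027374), near the mRNA entry of the small subunit and known from work on mitochondrial translation and lifespan, was at 40.1, 41.3 and 42.3 CPM in control, 39.8, 37.7, 40.1 and 27.4 in diabetes, 33.1, 47.0 and 25.8 in curcumin and 41.2 and 45.1 in garlic. Diabetes replicate 4 and curcumin replicate 3 were the lowest, and diabetes against control gave -0.18 ± 0.24. Mrps2 (ENSMUSG00000035772), of the small subunit, was at 26.6, 26.4 and 27.7 CPM in control, 28.2, 22.1, 26.1 and 18.3 in diabetes, 19.2, 27.1 and 19.8 in curcumin and 24.5 and 24.2 in garlic, where both garlic libraries were below control and the other groups overlapped, and the log2 change was -0.19 ± 0.25 for diabetes against control. None of these 3 passed in any comparison (adjusted p at least 0.64 by edgeR), and the sign of each changed under at least 1 alternative setting.

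Mrpl10, which anchors Mrpl12 in the stalk, stood at 17.0 ± 4.86 CPM in diabetes and 15.2 ± 4.04 in control, a log2 change of 0.17 ± 0.36, beside 1.11 ± 0.34 for Mrpl12. The difference between the 2 genes was not tested. Mrpl41, Mrpl42 and Mrpl47 of the large subunit gave 0.38 ± 0.33, 0.40 ± 0.40 and 0.29 ± 0.37 in diabetes against control. With garlic against diabetes Mrpl42 and Mrpl47 gave 0.02 ± 0.45 and 0.00 ± 0.42, the largest positive value of the members averaging at least 5 CPM being that of Mrps5 at 0.25 ± 0.27.

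Mrps18a, Mrps18b and Mrps18c are paralogs of 1 bacterial protein, of which Mrps18a sits in the large subunit in spite of its name. Mrps18c was at 13.0, 14.6 and 19.4 CPM in control, 41.9, 24.0, 35.2 and 27.7 in diabetes, 13.2, 19.4 and 22.8 in curcumin and 9.84 and 19.4 in garlic, with every diabetes library above every other library and 1.04 ± 0.32 for diabetes against control (adjusted p = 0.247). Mrps18a was at 45.3, 46.3 and 44.6 CPM in control, 78.0, 45.9, 70.8 and 81.4 in diabetes, 18.6, 67.8 and 37.0 in curcumin and 34.9 and 45.0 in garlic. Its diabetes replicate 2 lay within the control range, and the log2 change was 0.60 ± 0.32 (adjusted p = 0.478). Mrps18b was at 8.40, 9.29 and 4.76 CPM in control, 8.51, 4.56, 14.5 and 4.13 in diabetes, 14.9, 8.84 and 10.1 in curcumin and 5.98 and 5.11 in garlic, with overlapping groups and 0.08 ± 0.49 (adjusted p = 0.995). The 3 differ in level as well, at 68.2, 8.78 and 34.0 CPM per kilobase, and whether their changes differ was not tested. Mrps30, also of the large subunit in spite of its name, stood at 20.4 ± 5.81 CPM in diabetes and 16.5 ± 1.35 in control (log2 change 0.31 ± 0.31).

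Mrps36 is known as a subunit of the 2-oxoglutarate dehydrogenase complex rather than of the ribosome. It was at 1.73, 2.32 and 1.63 CPM in control, 0.353, 2.59, 3.48 and 1.14 in diabetes, 3.79, 2.33 and 0.0496 in curcumin and 1.02 and 2.47 in garlic, the lowest level of the tested members, and its log2 change of -0.01 ± 1.14 had the largest error. Its processed copies Mrps36-ps1 and Mrps36-ps2 held 2979 and 997 counts against 435 of the gene itself. Likewise Mrpl23-ps1 held 11113 counts against 919 of Mrpl23. Mrpl23-ps1 was at 32.5, 28.8 and 44.2 CPM in control and 51.4, 51.8, 89.0 and 109 in diabetes, all higher in diabetes, whereas Mrpl23 itself had a log2 change of -0.74 ± 0.73. How reads shared by a gene and its copy were counted is not given in the sources used here, so that the values of Mrps36 and Mrpl23 are uncertain. In the GENCODE M21 annotation exons of 26 members overlap exons of another gene, 22 on the opposite strand, among them Mrpl10, Mrpl12, Mrpl47, Mrpl58, Mrps18b and Mrps30. Mrps18c is among the 5 that overlap on the same strand, and the strand setting of the counting is not given, so the values of these genes are uncertain as well. Mrpl54, Mrpl52, Mrpl20, Mrpl17, Mrps28 and Mrps12 have no such overlap there.

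By role, the classes differed little in diabetes against control. The median was 0.62 over 29 tested large-subunit proteins with bacterial counterparts, 0.56 over 21 of mitochondria only, 0.62 over 16 small-subunit proteins with bacterial counterparts and 0.50 over 10 of mitochondria only. All 21 large-subunit and all 10 small-subunit proteins of mitochondria only had positive changes. The 10 include Mrps18b, which was put in that class although it is a paralog of Mrps18a and Mrps18c. The classes gave -0.56, -0.57, -0.60 and -0.47 with curcumin and -0.69, -0.56, -0.62 and -0.47 with garlic, both against diabetes. The 25 tested genes with the ETS letters in a RefSeq promoter had a median of 0.73 in diabetes against control, and 43 without them 0.47. Whether these differ was not tested, and the transcript lengths of the sets were not compared.

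Among the members the size of the change went with transcript length. In diabetes against control, 29 members with transcripts under 1000 bases had a median of 0.78, 28 between 1000 and 2000 bases had 0.52, and 20 longer ones had 0.37. Over all genes tested that had a length the medians were also lower in the longer classes, with values of 0.28, 0.18 and -0.19 in these length classes. In each class the members' median was above that of all genes. With curcumin against diabetes the members gave -0.80, -0.54 and -0.31 and all genes -0.50, -0.22 and 0.23. With garlic the values were -0.94, -0.58 and -0.44 for members and -0.30, -0.18 and 0.21 for all genes. Across the 77 members Spearman's rho between length and log2 change was -0.42, 0.44 and 0.45 in the 3 comparisons, and across 21885 genes it was -0.28, 0.32 and 0.28. Members are not independent replicates, and no p is given. With a correction for length the member medians were 0.55, -0.41 and -0.66, and edgeR called 4 members higher in diabetes, Mrpl17, Mrpl20, Mrpl52 and Mrpl54, against 0.79% of the 21885 genes with a length. With curcumin it called 0, and with garlic 6 lower, those 4 with Mrpl30 and Mrps28, against 0.877%.

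**Figure D5:**
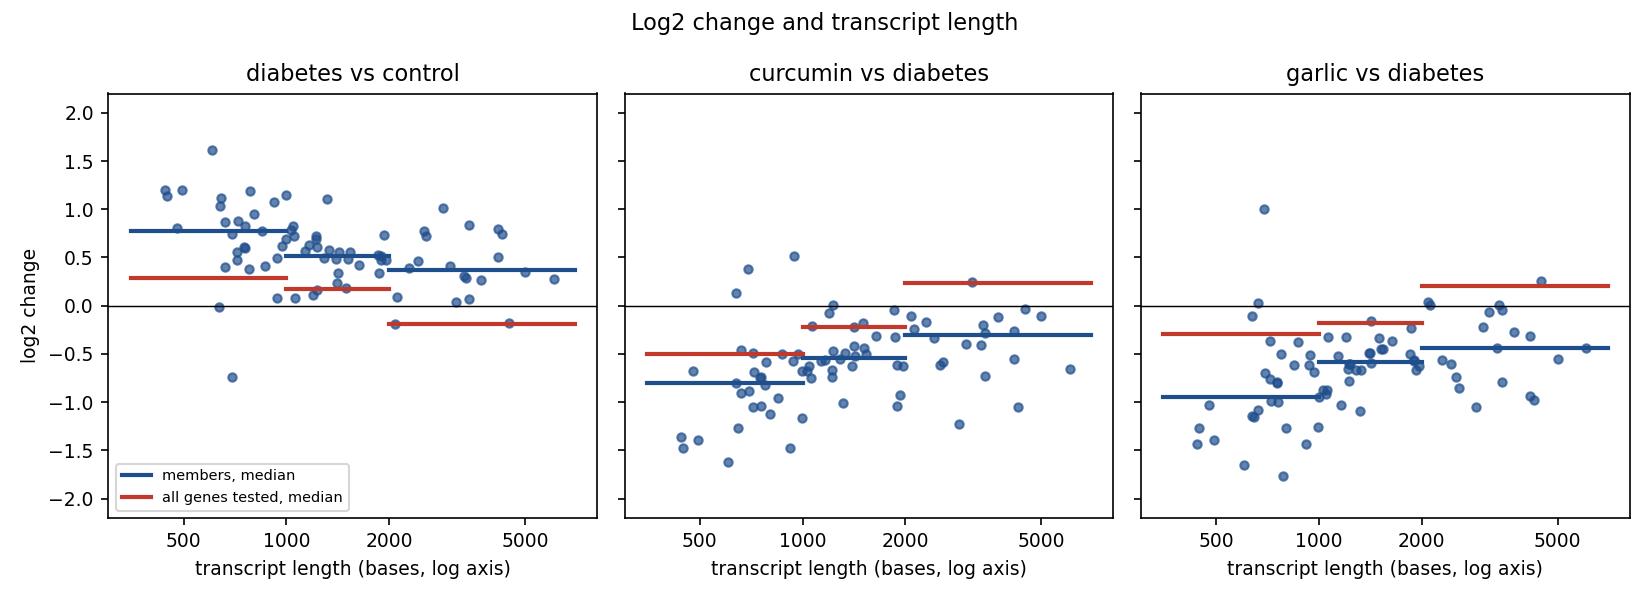
Log2 change of the 77 tested genes against transcript length (log axis) in the 3 comparisons, with the median of the members and of all genes tested in 3 length classes. Members with shorter transcripts have medians further from 0, at 0.78 under 1000 bases and 0.37 over 2000 bases in diabetes vs control. The medians of all genes differ in sign instead, at 0.28 and -0.19 in these classes.

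Proteins of the mitochondrial ribosome that carry other names were mostly higher too in diabetes against control. Of the 5 measured, 3 were higher and 1 lower at an unadjusted p under 0.05. Gadd45gip1, of the large subunit, was at 22.6, 30.7 and 18.0 CPM in control, 56.9, 42.4, 137 and 60.9 in diabetes, 13.7, 27.1 and 17.3 in curcumin and 19.9 and 22.2 in garlic, every diabetes library being above all others, with 1.64 ± 0.36 (edgeR adjusted p = 0.122). Aurkaip1, of the small subunit, gave 1.25 ± 0.31 (adjusted p = 0.142). Chchd1, Dap3 and Ptcd3, all of the small subunit and named after their values were seen, gave 1.20 ± 0.40, 0.40 ± 0.22 and -0.62 ± 0.23, so that Ptcd3 had the opposite sign.

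The machinery around the ribosome had medians nearer to 0. The 26 tested genes for assembly and rRNA modification had a median of 0.23 in diabetes against control, with 0 at an unadjusted p under 0.05 in either direction. The 16 translation factors had a median of -0.08, with 2 lower, the back-translocation factor Guf1 at -0.81 ± 0.28 and the ribosome recycling factor Gfm2 at -0.57 ± 0.23. The 20 mitochondrial aminoacyl-tRNA synthetases and amidotransferase subunits had a median of -0.02, with 1 higher, the leucyl-tRNA synthetase Lars2. It was at 238, 1208 and 408 CPM in control and 4287, 2936, 3281 and 872 in diabetes, which overlapped. In diabetes replicate 1 the whole list summed to 4620 CPM, so that Lars2 held most of it. How multi-mapped reads were counted is not given, and its level is uncertain. The 14 genes of mitochondrial transcription and genome maintenance had a median of 0.04, with 1 higher, the RNase P subunit Hsd17b10 at 1.03 ± 0.27. The 13 mRNAs that the ribosome translates had a median of -0.26, with mt-Nd4l (-0.92 ± 0.31) and mt-Nd5 (-0.66 ± 0.25) lower at that threshold. None of the genes in these lists passed (edgeR adjusted p).

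Nuclear genes of oxidative phosphorylation and cytosolic ribosomal proteins had medians of the same sign as the members. Of 76 oxidative phosphorylation genes tested, 42 were higher and 0 lower in diabetes against control at an unadjusted p under 0.05, with a median of 0.79 and 0 passing. Ndufs8, of complex I, stood at 212 ± 52.9 against 77.4 ± 15.8 CPM (log2 change 1.45 ± 0.28), and Atp5j2, of the ATP synthase, at 360.1 ± 77.3 against 148 ± 12.6. Of 78 cytosolic ribosomal proteins, 31 were higher and 0 lower at that threshold, with a median of 0.52, and 1 passed, Rps2. With curcumin against diabetes the medians were -0.86 (44 lower) and -0.90 (43 lower), and with garlic -0.86 (38 lower) and -0.43 (24 lower). The mitochondrial mRNAs gave 0.01 and 0.49. Slirp and Lrpprc, partners that stabilise mitochondrial mRNAs, gave -2.32 ± 0.65 and 0.48 ± 0.21 with curcumin against diabetes. No difference between these lists and the members was tested.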

How the data were processed

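Raw counts per gene were deposited by the authors as 1 table of 12 libraries. FastQC, featureCounts and the build GRCm39 are named in the submitters' processing notes, while the aligner, annotation release, strand setting and handling of multi-mapped reads were not given there or in the labels. Per the labels' protocols, the kit selected poly-A RNA, kept strand and took RNA of integrity above 7.0. Symbols and transcript lengths came from GENCODE M21 and promoters from RefSeq (GRCm38.p6). The only coordinates given are those of the promoter windows, on that older build and not on the GRCm39 of the counts. Of 78334 IDs, 51486 had a symbol, holding 97.8% of counts.

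Counts of all 12 libraries entered 1 fit of edgeR 4.0.16 (quasi-likelihood test, TMM scaling, filterByExpr; R 4.3.3), with Benjamini-Hochberg adjustment over 25562 genes and a threshold of 0.05. CPM used TMM-scaled library sizes. DESeq2 1.42.0, limma 3.58.1 and fits without single libraries were alternatives. Chi-square per degree of freedom between libraries of a group was 22.4 or more, so none looked like a repeat of another. The script was tested on simulated data.

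The members and lists were chosen with earlier results of these data known. Members named with values were, per main comparison, the 5 of smallest p and the 3 largest changes each way averaging at least 5 CPM, besides the 3 highest and lowest per length, the Mrps18 paralogs and members chosen for their roles. Genes of other lists were named where they passed or had the 2 smallest p. The 22 alternatives per comparison are described at the end. Depth ranged from 12950017 to 30271706 counts.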

Additional observations from a re-analysis of the deposited data

How the results depend on the processing

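In the 3 comparisons that involve diabetes, in each of the 22 alternatives, the member median kept its sign and no member was called against it: the median lay between 0.47 and 0.94 in diabetes against control, -0.79 and -0.40 in curcumin against diabetes and -1.22 and -0.46 in garlic against diabetes. Against control the sign did not hold: the median lay between -0.34 and 0.19 for curcumin and between -0.32 and 0.12 for garlic. The count of members that passed did not hold. In diabetes against control it was 6 without a filter on low counts, beside 359 of 50209 genes higher. It was 9 with DESeq2 (1.86% of all genes higher), 19 with limma-voom and library weights (2.83%) and 4 with a length correction (0.79%). The fits that each leave out one control, diabetes or curcumin library gave 0 to 2. The 2 came without curcumin replicate 1, beside 84 of 24940 genes higher. In curcumin against diabetes it was 1 with relative log expression scaling (111 of 25562 genes lower) and 13 without a filter (651 of 50209). It was 10 with DESeq2 (2.62% of all genes lower) and 2 with limma-voom (0.45%). With the number of detected genes as a covariate it was 6, beside 326 of 25562 genes lower. Leaving out one library gave 0 to 27, with 4.82% of all genes lower at the 27. Without diabetes replicate 4 and curcumin replicate 2 it was 16 (3.3%). In garlic against diabetes it was 6 without a filter (277 of 50209 genes lower) and 7 with DESeq2 (1.56% of all genes lower). It was 8 with limma-voom (1.4%) and 6 with the length correction (0.877%). Every fit that left out one control, diabetes or curcumin library gave 0, beside at most 57 of 25358 genes lower. In curcumin against control it was 0 to 1 leaving out one library, with 0.193% of all genes lower where it was 1. The covariate moved the member median to 0.94 in diabetes against control and -1.22 in garlic against diabetes, and leaving out one library gave -0.91 to -0.46 for garlic. Diabetes overlapped with neither control nor garlic in the number of detected genes. The cause of these shifts was not tested.

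Over the whole table, diabetes against control called 4 genes as reported, and 468 without a filter, 0 with a stricter filter, 528 with DESeq2, 1177 with limma-voom, 176 with the length correction, 0 with the covariate, 1 without diabetes replicate 4 and curcumin replicate 2, and 0 to 194 leaving out one library, with the highest count without garlic replicate 1. Curcumin against diabetes called 23, and 123 with relative log expression scaling, 1128 without a filter, 2 with a stricter filter, 1059 with DESeq2, 123 with limma-voom, 65 with a robust spread, 57 with the length correction, 376 with the covariate, 1076 without the 2 libraries and 1 to 1975 leaving out one library, with the highest count without curcumin replicate 2. Garlic against diabetes called 0, and 356 without a filter, 432 with DESeq2, 429 with limma-voom, 4 with a robust spread, 195 with the length correction, 1 without the 2 libraries and 0 to 71 leaving out one library, with the highest count again without curcumin replicate 2. In these comparisons the median over all genes moved by more than 0.1 with limma-voom, to -0.32 in diabetes against control and 0.33 in garlic against diabetes. It also did so with the length correction, to 0.12 and -0.14, with the covariate, to 0.07 and -0.13, with the replicate block, to -0.19 in the first, and without a filter, to 0.35 for garlic.

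The labels number the replicates. Over 15 pairs of same-numbered libraries the correlation of their deviations from the group means ran from -0.179 to 0.252, above 0.1 in 4. Each of those 4 pairs includes a garlic library, and the deviations of the 2 garlic libraries mirror each other. Pairs with different numbers were not compared, so these values cannot show whether the numbers pair the libraries. With the replicate block in the fit 0 members passed in the 3 main comparisons, the member medians were 0.54, -0.55 and -0.55, and 1, 47 and 1 genes passed. The block changed the sign of Mrpl3 (-0.05) and Mrps36 (0.21) in diabetes against control, of Mrps36 (-0.12) and Mrpl47 (0.01) in curcumin against diabetes and of Mrps2 (-0.08) in garlic against diabetes.

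Other signs changed as follows, all of members that did not pass in the fit reported. In diabetes against control Mrps36 was 0.05 with relative log expression scaling, 0.02 with a stricter filter, 0.05 with DESeq2 and 0.15 without the 2 libraries. Mrps18b was -0.23 with limma-voom, -0.02 with the length correction and -0.49 with the covariate. Mrps5 was 0.14 and 0.17 with the latter pair of settings, Mrps2 0.06 with the covariate and Mrpl3 -0.06 without the 2 libraries. Leaving out one library gave -0.48 to 0.34 for Mrps36, -0.03 to 0.33 for Mrpl10, -0.38 to 0.29 for Mrps18b and -0.05 to 0.17 for Mrpl3. In curcumin against diabetes Mrpl10 was -0.04 with relative log expression scaling and with DESeq2, -0.02 with a stricter filter, -0.17 with the covariate and -0.12 without the 2 libraries. Mrps36 was -1.89 with limma-voom and -0.16 without the 2 libraries. Leaving out one library gave -0.20 to 0.21 for Mrpl10, -0.66 to 0.70 for Mrps36, -0.27 to 0.14 for Mrps5 (-0.41 without the 2 libraries) and -0.42 to 0.04 for Mrpl47. In garlic against diabetes Mrpl42 was -0.02 with relative log expression scaling and with DESeq2, -0.03 with limma-voom, just below 0.00 with the length correction and -2.15 with the covariate. Mrpl47 was -0.04, -0.04, -0.02, -0.26 and -0.29 with that scaling, DESeq2, a stricter filter, the length correction and the covariate. Mrps2 was -0.01, -0.01, -0.09, -0.35 and -0.04 with that scaling, DESeq2, the length correction, the covariate and without the 2 libraries. Mrps5 was -0.08 with the length correction and -0.32 with the covariate, Mrps18b was 0.36 with the covariate, Mrps36 0.21 with limma-voom and Mrpl3 0.04 without the 2 libraries. Leaving out one library gave -0.37 to 0.32 for Mrpl42, -0.36 to 0.28 for Mrpl47, -0.88 to 0.38 for Mrps36, -0.20 to 0.04 for Mrpl3 and -0.07 to 0.14 for Mrps2. Where 1 garlic or control library was left out, the spread came from all groups, and a lone garlic library is assumed to vary like the rest.

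The comparisons rest on 2 to 4 libraries a group with a coefficient of biological variation of 0.808 over all genes. The least counted tested member had 435 counts in all.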
